A study of Mus musculus with 36 samples.

Results

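The 10 genes described here encode enzymes, and 1 enzyme cofactor, that acinar cells of the pancreas secrete into the gut. They were taken by symbol from a table of 18845 genes, and all 10 were found. They were chosen by the measured CPM in diaphragm libraries of stage E15.5, in days of embryonic development, where their sum stood high. Not every member did so: Pnlip had no read there, and Cpb1 reached at most 1.67 CPM. The levels and Cre difference of the members at that age are therefore given as a description, with no test.

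Acinar cells make digestive enzymes at very high levels, mostly as inactive precursors that become active in the gut. Amylase cuts starch, lipases with their cofactor colipase split dietary fat, and trypsin, chymotrypsin, elastases and carboxypeptidases cut proteins. The pancreas lies in the abdomen below the diaphragm, the muscle of breathing.

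The study purified RNA through HA-tagged ribosomal protein Rpl22 (RiboTag), whose tagged exon is expressed only after Cre recombination. The groups were Cre-positive diaphragm, carrying both ChAT-Cre and the Ribo-tag allele, Cre-negative diaphragm, carrying the Ribo-tag allele alone, and spinal cord, in which all mice carried both. Each was sampled at E15.5, postnatal days 0.5 and 10 (P0.5, P10) and in adults of 2 months, with 3 libraries in each of the 12 groups. ChAT-Cre acts in cholinergic cells such as motor neurons, Cre-negative libraries show the RNA recovered without Cre, and no Cre-negative spinal cord was analysed here. Diaphragm samples were labelled as synapse-enriched muscle, and neither the pooling of animals nor the independence of replicates was stated, so p-values measure only the spread between these libraries.

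Levels are in CPM, the reads of a gene per 1000000 reads of its library. Depth, in units of 1000000 reads, was 86.0 to 107 in Cre-positive diaphragm, 68.2 to 93.7 in Cre-negative diaphragm and 63.7 to 71.8 in spinal cord. A gene with no read has an upper limit of 3 reads, equal to 0.0280 to 0.0471 CPM, which covers counting error only. Muscle genes marked the diaphragm libraries, with Tnnc2 at 37573 to 48099 CPM in Cre-positive and 41906 to 52347 CPM in Cre-negative libraries at E15.5. The 8 motor neuron and cholinergic genes summed to 47.2, 66.0 and 49.3 CPM in E15.5 Cre-positive replicates 1, 2 and 3, against 15.8, 55.6 and 70.6 CPM in Cre-negative replicates 1, 2 and 3, mostly from Prph and Isl1. Of the cholinergic genes among them, Chat had 0.157, 0 and 0.0777 CPM in Cre-positive replicates 1, 2 and 3. Slc18a3 had 0.0225, 1.29 and 0.333 CPM there, and Slc5a7 had 0.371, 0.178 and 0.355 CPM. None of them had a read in Cre-negative libraries. Mnx1 and Lhx3, transcription factors of motor neurons, had no read in either group, and Chat reached 73.8 CPM in spinal cord. In bulk RNA, fewer cells of a type and less RNA per cell cannot be told apart.

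Some libraries of a group were not clearly separate. Within every group, the values of 1 library could be nearly rebuilt by mixing its 2 companions with fixed weights, to within 1.81 to 3.65 times the counting error, whereas pairs of libraries of a group stood 3.01 to 32.1 times the counting error apart. This intermediate library was replicate 3 in 9 of the 12 groups. At E15.5 it was Cre-positive replicate 3, at weights of 0.806 for replicate 1 and 0.193 for replicate 2, and Cre-negative replicate 2, at weights of 0.231 for replicate 1 and 0.767 for replicate 3. Most members lay near the same sums. Further off were Cela2a in Cre-positive replicate 3 (3.41 CPM, sum 4.71 CPM) and Cpb1 in Cre-negative replicate 2 (0.685 CPM, sum 0.221 CPM). Amy2a5 was measured at 76.9 CPM in Cre-positive replicate 3, where the weighted sum gives 75.1 CPM, and at 328 CPM in Cre-negative replicate 2, where the sum gives 324 CPM. Results are therefore also given without the intermediate libraries. A further library stood apart in the members: Cre-positive E15.5 replicate 2.

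The summed level of the 10 genes was highest in E15.5 diaphragm. It was 572, 18.4 and 467 CPM in Cre-positive replicates 1, 2 and 3, against 403, 1326 and 1570 CPM in Cre-negative replicates 1, 2 and 3. The means were 352 ± 294 CPM in Cre-positive and 1100 ± 615 CPM in Cre-negative diaphragm (SD, n = 3 each), and the ranges overlapped. Without Cre-positive replicate 2 the Cre-positive mean was 519 CPM, and without the intermediate libraries the means were 295 CPM in Cre-positive and 987 CPM in Cre-negative diaphragm. Cre-positive replicate 2 was the lowest of the 6 libraries for 7 of the 10 members. Among other genes described below, it was the lowest for 13 of 19 hepatocyte and 10 of 18 skeletal muscle genes. The counts were smaller for other acinar (12 of 34), islet (3 of 21) and erythroid genes (1 of 9). A gene at 0 CPM both there and in another of the 6 libraries was not counted as lowest. Such ties held down the counts of acinar and islet genes, and of the members for Cpb1, so these counts do not compare the lists. Over all genes tested it was the lowest for 3723 of 13853. Being lowest in that library was thus not particular to the members.

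After birth the sum in diaphragm was far lower. At P0.5 it was 3.89, 15.53 and 2.49 CPM in Cre-positive replicates 1, 2 and 3, with a mean of 7.30 ± 7.16 CPM, and the Cre-negative mean was 1.11 ± 0.919 CPM (SD, n = 3 each). At P10 the means were 0.808 ± 0.315 CPM in Cre-positive and 0.287 ± 0.177 CPM in Cre-negative diaphragm, and in the adult 2.75 ± 0.185 CPM in Cre-positive and 0.256 ± 0.226 CPM in Cre-negative diaphragm (SD, n = 3 each). Every member read in Cre-positive diaphragm at P10 and in both adult diaphragm groups came from a single gene, the elastase gene Cela1.

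In spinal cord the sum went the other way with age, at 6.56 ± 1.06, 14.7 ± 0.623, 17.9 ± 1.07 and 28.6 ± 1.39 CPM at E15.5, P0.5, P10 and in the adult (SD, n = 3 each). Without Cela1 these means were 4.40, 7.92, 2.16 and 1.38 CPM. In the order of all 12 group means, both E15.5 diaphragm groups came first, with overlapping ranges, followed by adult, P10 and P0.5 spinal cord, whose ranges did not overlap with each other. The range of E15.5 Cre-positive diaphragm, because of replicate 2, reached below that of adult spinal cord.

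**Figure D1:**
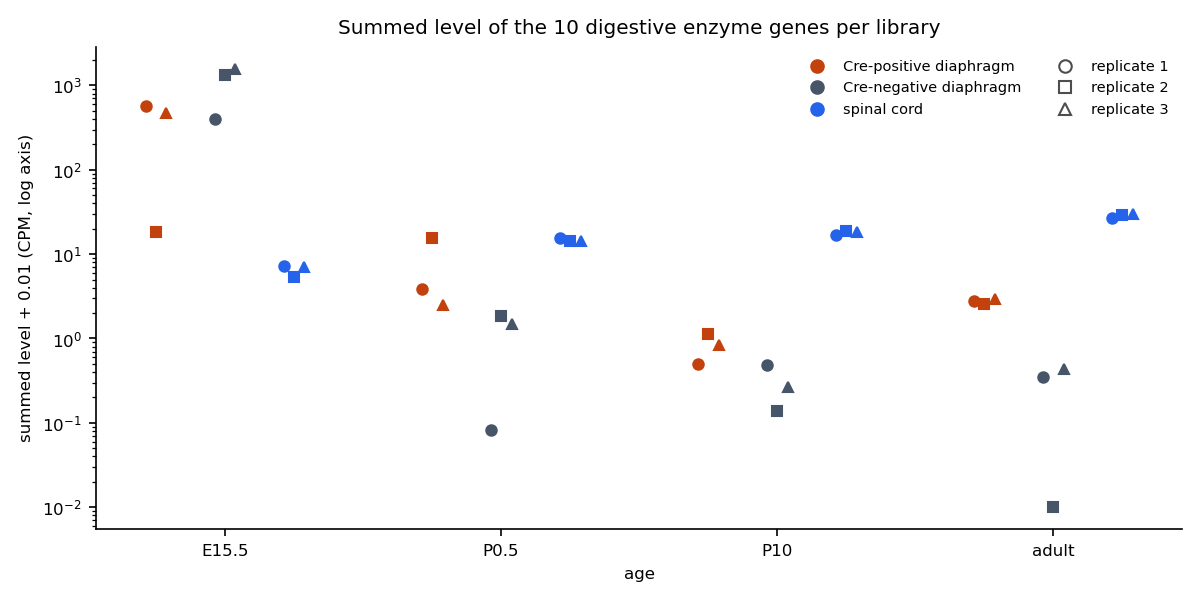
Summed CPM of the 10 digestive enzyme genes in each of the 36 libraries, on a log axis after adding 0.01 CPM, by age and with 1 symbol per replicate. In E15.5 diaphragm 5 of the 6 libraries lie between 403 and 1570 CPM, and Cre-positive replicate 2 lies at 18.4 CPM.

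The promoters of 4 members are shown because these genes differed in where most of their reads were found. Ctrb1 and Pnliprp1 had nearly all their reads in E15.5 diaphragm, and few in spinal cord. Cela1 had many reads in both E15.5 diaphragm and spinal cord. Pnlip had most of its reads in spinal cord and none in E15.5 diaphragm. Each sequence runs 5′ to 3′ from 250 bases before to 50 bases after the gene's start, from RefSeq on build GRCm38.p6, and capitals mark 4 motifs on either strand, the E-box forms CACCTG and also CAGCTG, the letters TTTCCC, and the TATA box letters TATAAA.
Ctrb1 (chr8:111690961-111691260, minus strand): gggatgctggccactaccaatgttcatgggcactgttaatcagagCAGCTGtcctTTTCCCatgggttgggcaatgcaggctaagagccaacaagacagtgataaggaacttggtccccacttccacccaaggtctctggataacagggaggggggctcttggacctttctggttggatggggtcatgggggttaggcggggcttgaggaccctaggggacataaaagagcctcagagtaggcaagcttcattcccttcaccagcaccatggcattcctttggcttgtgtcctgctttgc
Pnliprp1 (chr19:58728637-58728936, plus strand): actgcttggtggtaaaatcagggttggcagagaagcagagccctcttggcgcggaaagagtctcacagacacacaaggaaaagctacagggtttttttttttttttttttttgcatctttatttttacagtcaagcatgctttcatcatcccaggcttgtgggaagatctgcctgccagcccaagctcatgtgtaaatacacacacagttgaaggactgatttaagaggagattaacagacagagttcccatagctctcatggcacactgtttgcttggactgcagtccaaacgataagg
Cela1 (chr15:100687871-100688170, minus strand): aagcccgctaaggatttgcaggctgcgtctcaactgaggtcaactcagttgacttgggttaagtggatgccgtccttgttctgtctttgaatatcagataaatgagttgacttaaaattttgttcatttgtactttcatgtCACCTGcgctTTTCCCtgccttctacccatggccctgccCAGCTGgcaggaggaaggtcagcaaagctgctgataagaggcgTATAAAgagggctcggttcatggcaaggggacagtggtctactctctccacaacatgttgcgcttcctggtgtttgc
Pnlip (chr19:58670115-58670414, plus strand): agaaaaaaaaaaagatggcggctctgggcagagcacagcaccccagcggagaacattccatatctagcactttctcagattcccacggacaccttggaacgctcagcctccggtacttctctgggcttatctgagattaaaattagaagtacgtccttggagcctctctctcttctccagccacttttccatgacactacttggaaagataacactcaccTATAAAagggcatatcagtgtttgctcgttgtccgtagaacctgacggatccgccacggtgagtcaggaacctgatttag

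The letters TTTCCC stand in the element that the acinar factor complex PTF1 is known to bind beside an E-box. These motifs were chosen after the sequences had been seen, and a match is a description only. An E-box that starts within 20 bases of TTTCCC was found in 2 of the 9 member promoters in the RefSeq table (all members but Clps), those of Cela1 and Ctrb1, and in 1.24% of 32851 promoters of the same length. TATAAA was found in 5 of the 9 and in 13.6% of all, TTTCCC in 6 of the 9 and in 25.2% of all. CACCTG was in 4 of the 9 and in 20.2% of all, and CAGCTG in 4 of the 9 and in 16.3% of all. Pnlip has TATAAA from base -30 before its start, Pnliprp1 holds none of the 4 motifs in this window, and the pair are neighbours on chromosome 19, where Pnliprp1 (chr19:58728887-58744169) starts 47088 bases after Pnlip (chr19:58670365-58681799) ends.

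Amy2a5, a pancreatic amylase gene at chr3:113249178-113258699, had 93.0, 0.609 and 76.9 CPM in E15.5 Cre-positive replicates 1, 2 and 3, against 114, 328 and 388 CPM in Cre-negative replicates 1, 2 and 3. All Cre-positive libraries lay below all Cre-negative ones, with a mean 4.87-fold lower, or 3.26-fold lower without Cre-positive replicate 2. The gene has close copies (Amy2a4 starts 21138 bases after its end), and how reads shared between copies were assigned is not given in the sources used here, so its level is uncertain.

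Among the fat-digesting members, Pnliprp1, pancreatic lipase-related protein 1, had 68.1, 1.04 and 57.6 CPM in Cre-positive replicates 1, 2 and 3, against 70.2, 206 and 240 CPM in Cre-negative replicates 1, 2 and 3. Its groups did not overlap, by a narrow margin between 68.1 and 70.2 CPM, and the Cre-positive mean was 4.08-fold lower. Clps (chr17:28558210-28560766) encodes colipase, the cofactor that lets pancreatic lipase work in the presence of bile salts, and had 228, 8.76 and 189 CPM in Cre-positive replicates 1, 2 and 3, against 105, 354 and 419 CPM in Cre-negative replicates 1, 2 and 3. For Clps the groups overlapped, since Cre-negative replicate 1 lay below Cre-positive replicates 1 and 3. Pnlip, pancreatic triglyceride lipase itself, had no read in any of the 6 libraries.

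Among the carboxypeptidases, which remove residues from the C-terminal end of peptides, Cpa1 (chr6:30639218-30645361) had 26.5, 0.210 and 20.8 CPM in Cre-positive replicates 1, 2 and 3, against 38.9, 65.5 and 77.3 CPM in Cre-negative replicates 1, 2 and 3. The groups did not overlap, and the Cre-positive mean was 3.82-fold lower. Cpb1 (chr3:20249479-20275733), whose enzyme removes basic residues, had 1.67, 0 and 1.38 CPM in Cre-positive replicates 1, 2 and 3, against 0, 0.685 and 0.288 CPM in Cre-negative replicates 1, 2 and 3. Here Cre-positive replicates 1 and 3 were above every Cre-negative library.

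The chymotrypsinogen gene Ctrb1 (chr8:111686510-111691010) had 109, 0.0945 and 85.8 CPM in Cre-positive replicates 1, 2 and 3, against 68.0, 342 and 407 CPM in Cre-negative replicates 1, 2 and 3. The trypsinogen gene Prss2 (chr6:41521776-41525079) had 7.91, 0 and 5.80 CPM in Cre-positive replicates 1, 2 and 3, against 1.58, 2.52 and 3.42 CPM in Cre-negative replicates 1, 2 and 3. Both overlapped between the groups, but in Prss2 it was Cre-positive replicates 1 and 3 that stood above every Cre-negative library. Trypsinogens form a family of close copies, so the level of Prss2 is uncertain.

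Elastases cut proteins beside small residues. Cela1 (chr15:100674422-100687920) had 31.0, 7.68 and 26.4 CPM in Cre-positive replicates 1, 2 and 3, against 5.20, 16.9 and 20.4 CPM in Cre-negative replicates 1, 2 and 3. Cela2a (chr4:141814954-141826005) had 5.85, 0 and 3.41 CPM in Cre-positive replicates 1, 2 and 3, against 0.0733, 10.3 and 14.3 CPM in Cre-negative replicates 1, 2 and 3. Cela1 was thus highest in Cre-positive replicates 1 and 3 and Cela2a in Cre-negative replicates 2 and 3, and both overlapped between the groups.

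In all, 3 of the 10 members (Amy2a5, Pnliprp1 and Cpa1) had every Cre-positive library below every Cre-negative one at E15.5. Over all 13853 genes tested the share was 22.4%, with 16.1% the other way, and since the genes were proposed from this comparison nothing is read from their count. The median log2 difference, Cre-positive minus Cre-negative on log2(CPM + 1), was -1.74 over the 9 members that passed the filter of 1 CPM in 3 libraries, against -0.06 over all genes tested. That median rested on 1 library, since without Cre-positive replicate 2 it was -0.26 over the same 9 members and -0.01 over all genes. With that library left out, Cpb1, Cela1 and Prss2 also ceased to overlap, with the Cre-positive libraries above, as for 27.5% of all genes, and 26.8% of all genes then lay below.

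**Figure D2:**
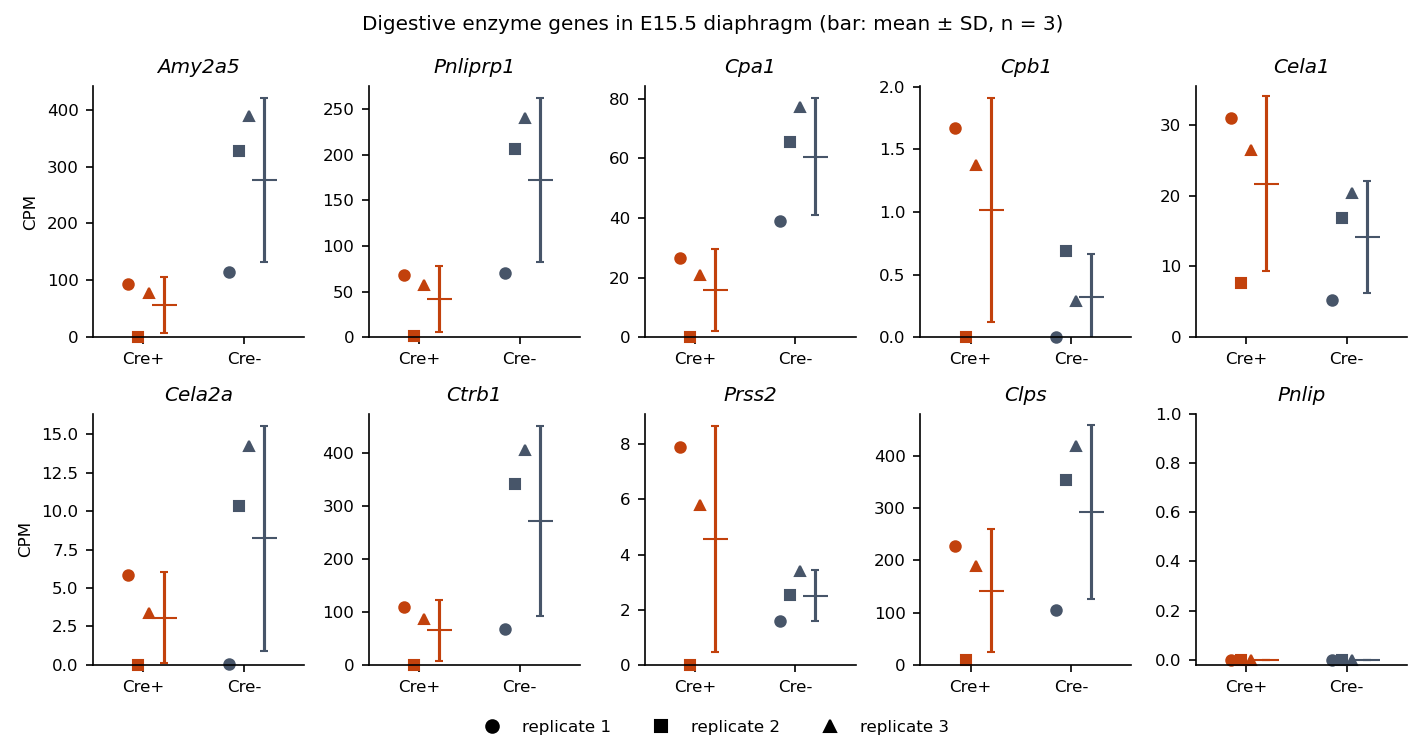
CPM of each member in the 6 E15.5 diaphragm libraries, with 1 panel and linear axis per gene, symbols for replicates, and the mean ± SD (n = 3) beside the points, cut at 0 where the SD exceeds the mean. Cre-positive replicate 2 is at or near 0 for most members, while Clps and Cela1 keep 8.76 and 7.68 CPM, and Pnlip is at 0 throughout.

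Within a library, the ratio of a member to Clps does not depend on depth, and it tells whether the genes kept a fixed proportion. The ratio of Amy2a5 to Clps was 0.407, 0.0695 and 0.406 in Cre-positive replicates 1, 2 and 3, against 1.09, 0.926 and 0.928 in Cre-negative replicates 1, 2 and 3. The ratio of Pnliprp1 to Clps was 0.298, 0.119 and 0.305 in Cre-positive replicates 1, 2 and 3, against 0.669, 0.583 and 0.574 in Cre-negative replicates 1, 2 and 3. Ctrb1 to Clps stood at 0.478, 0.0108 and 0.454 in Cre-positive and at 0.648, 0.966 and 0.971 in Cre-negative replicates 1, 2 and 3. All 3 ratios were lower in every Cre-positive library.

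Cela1 ran the opposite way, with a ratio to Clps of 0.136, 0.877 and 0.140 in Cre-positive replicates 1, 2 and 3, against 0.0496, 0.0476 and 0.0487 in Cre-negative replicates 1, 2 and 3. The members were thus not in 1 fixed proportion across the 6 libraries. In Cre-positive replicate 2 the ratio of Cela1 was the highest of the 6 and that of Ctrb1 the lowest. These ratios come from the libraries that chose the genes and were not tested.

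**Figure D3:**
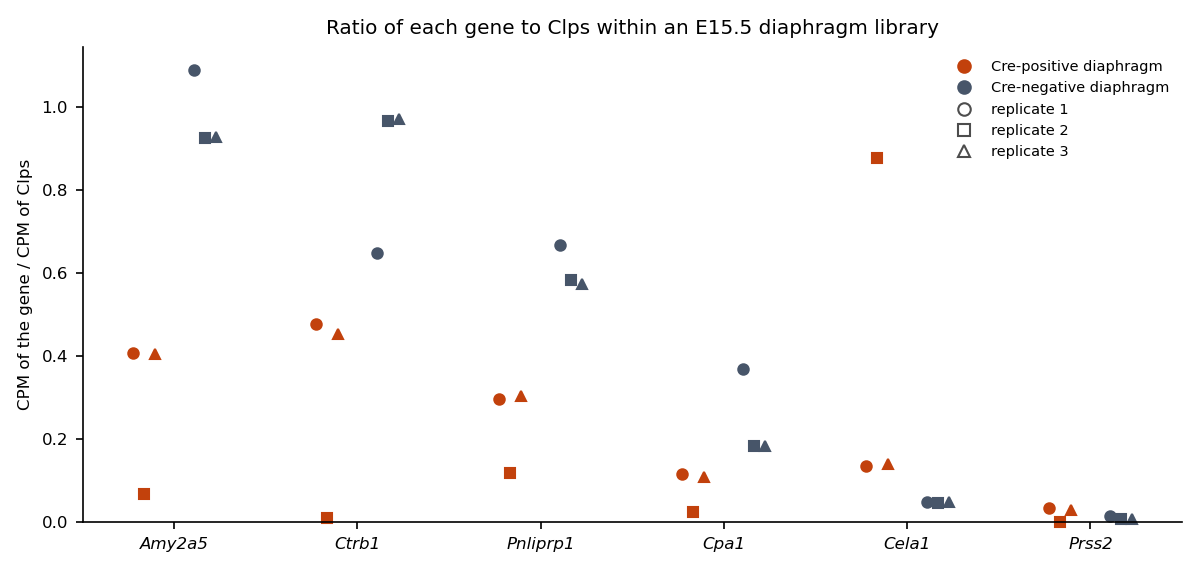
CPM of 6 members divided by the CPM of Clps in the same E15.5 diaphragm library, with 1 symbol per replicate. Amy2a5, Ctrb1 and Pnliprp1 have lower ratios in all 3 Cre-positive libraries, whereas Cela1 reaches 0.877 in Cre-positive replicate 2 against 0.0476 to 0.0496 in the Cre-negative libraries.

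Further acinar genes were read from a list of 40, of which 34 are in the table. Reads of 26 of the 34 were present in both Cre-positive replicates 1 and 3, and 18 of these 26 (69.2%) had no read in Cre-positive replicate 2, compared with 3 of 9 members (33.3%). The same count was 6 of 8 for stomach, 3 of 7 for intestine and 2 of 6 for motor neuron and cholinergic genes. It was 0 of 19 for hepatocyte genes. Low genes lack reads more often, so the share of all genes is set beside those that passed the filter: 11 of 19 acinar genes (57.9%), 3 of 9 members, and 4.19% of the 13629 genes with such reads among all genes tested. Few genes of the other lists named here passed it, with 0 of 1 stomach, 0 of 4 intestine and 0 of 2 motor neuron and cholinergic genes, apart from 0 of 19 hepatocyte genes. Prss1, a trypsinogen, had 2.91, 0 and 2.21 CPM in Cre-positive replicates 1, 2 and 3, against 0.806, 22.3 and 31.3 CPM in Cre-negative replicates 1, 2 and 3. Ptf1a, a transcription factor of the acinar lineage, had 0.135, 0 and 0.0333 CPM in Cre-positive replicates 1, 2 and 3, against 0, 0.897 and 1.23 CPM in Cre-negative replicates 1, 2 and 3. Both were named after their values had been seen, and both lacked reads in Cre-positive replicate 2.

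The most abundant acinar genes outside the 10 kept reads in that library. Spink1, a trypsin inhibitor, had 140, 113 and 131 CPM in Cre-positive replicates 1, 2 and 3, against 341, 391 and 399 CPM in Cre-negative replicates 1, 2 and 3, and Gatm, an enzyme of creatine synthesis that many tissues express, had 111, 67.2 and 101 CPM in Cre-positive against 270, 200 and 185 CPM in Cre-negative replicates 1, 2 and 3. The summed list was 326, 199 and 296 CPM in Cre-positive against 713, 750 and 765 CPM in Cre-negative replicates 1, 2 and 3. Ctrl, Gp2, Klk1b5 and 2210010C04Rik had no read in any of the 6 libraries.

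Islet genes, from the endocrine part of the pancreas, were mixed. The list summed to 195, 109 and 184 CPM in Cre-positive replicates 1, 2 and 3, against 76.6, 197 and 238 CPM in Cre-negative replicates 1, 2 and 3. With ties at 0 CPM not counted, 3 of its 21 genes were lowest of the 6 libraries in Cre-positive replicate 2. Ins2, an insulin gene, had 121, 0 and 101 CPM in Cre-positive replicates 1, 2 and 3, against 26.9, 74.7 and 99.1 CPM in Cre-negative replicates 1, 2 and 3. Of 16 islet genes with reads in Cre-positive replicates 1 and 3, 9 had none in replicate 2, and Slc30a8 had no read in any of the 6 libraries. Chga, a granule protein of many endocrine and neural cells that was named after its values had been seen, ran the other way, at 13.6, 67.1 and 23.7 CPM in Cre-positive replicates 1, 2 and 3, against 17.4 to 21.7 CPM in Cre-negative libraries. Duct genes summed to 369, 95.4 and 316 CPM in Cre-positive replicates 1, 2 and 3, against 188, 204 and 195 CPM in Cre-negative replicates 1, 2 and 3. A large part of that spread was Spp1, also named after its values had been seen, at 168, 1.96 and 135 CPM in Cre-positive replicates 1, 2 and 3, whereas Krt19 had 32.6, 23.6 and 29.9 CPM there.

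Genes of the other abdominal and thoracic organs gave different pictures. The 19 hepatocyte genes all had reads, and summed to 21732, 18355 and 21308 CPM in Cre-positive replicates 1, 2 and 3, against 25514, 24902 and 25248 CPM in Cre-negative replicates 1, 2 and 3. Cre-positive replicate 2 thus kept most of its hepatocyte reads, although 13 of the 19 genes were lowest of the 6 libraries there. Stomach genes summed to 9.14, 1.88 and 5.67 CPM in Cre-positive replicates 1, 2 and 3 and had no read in the Cre-negative libraries. Intestine genes summed to 107, 68.5 and 92.7 CPM in Cre-positive and to 126, 117 and 102 CPM in Cre-negative replicates 1, 2 and 3. Lung epithelium genes lay at 2.04 to 7.08 CPM in Cre-positive and 0.134 to 0.663 CPM in Cre-negative libraries, and Sftpb, Sftpa1, Sftpd, Scgb1a1 and Scgb3a2 had no read in any of the 6. Erythroid genes, by contrast, were highest in Cre-positive replicate 2, at 129433, 216097 and 145886 CPM in Cre-positive replicates 1, 2 and 3, against 117943 to 123623 CPM in Cre-negative libraries. The part of any of these tissues in the member levels was not tested.

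**Figure D4:**
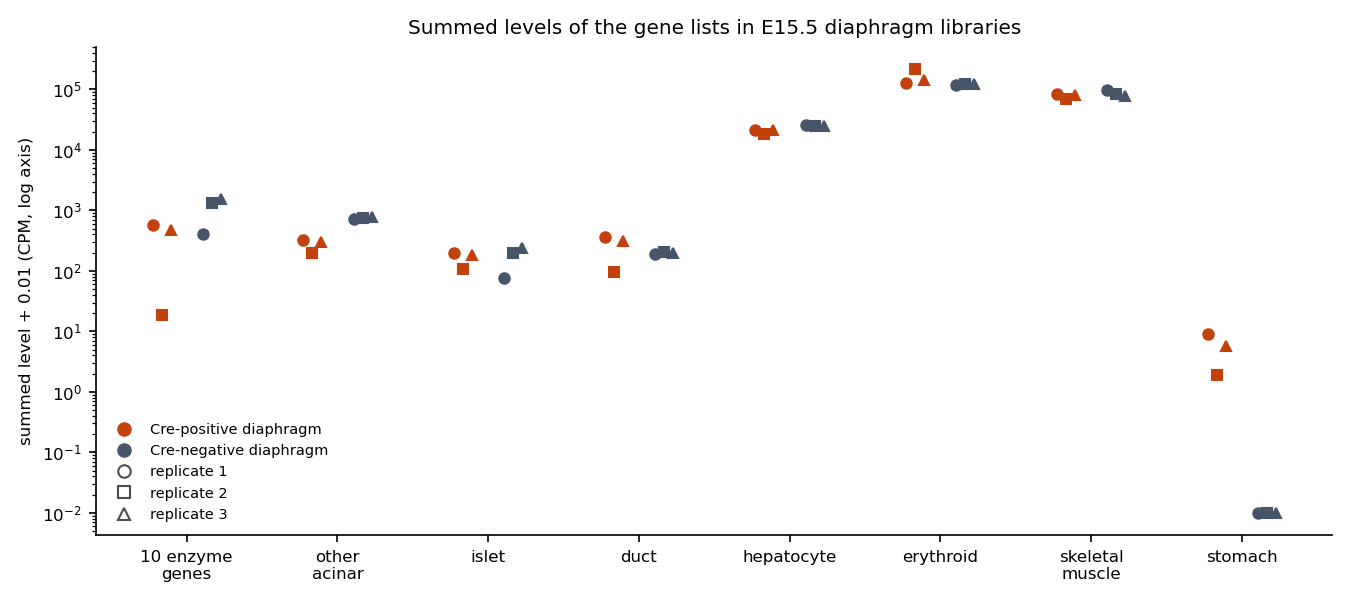
Summed CPM of 8 gene lists in the 6 E15.5 diaphragm libraries, on a log axis after adding 0.01 CPM, with 1 symbol per replicate. Cre-positive replicate 2 is low for the enzyme genes (18.4 CPM) and duct genes (95.4 CPM), stays at 18355 CPM for hepatocyte genes, and is high for erythroid genes.

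The genes most like the members over the 24 diaphragm libraries were ranked by Pearson correlation of log2(CPM + 1) with the summed member level, among 11798 genes. The first 15 were Hba-x (0.977), Pipox, Cyp2c68, Igll1, Rbp2, Foxa3, Aadac, A2m, Mmd2, Proz, Crp, Krt13, Aqp8, Bex4 and Etnk2 (0.951). All points share the contrast between E15.5 and later libraries, so these correlations describe that step and carry no p. Hba-x, an embryonic globin, had 17.7, 5.27 and 14.8 CPM in E15.5 Cre-positive replicates 1, 2 and 3, against 11.6, 22.4 and 25.4 CPM in Cre-negative replicates 1, 2 and 3. Krt13, a keratin of stratified epithelia, had 14.7, 0.0735 and 12.6 CPM in Cre-positive against 20.6, 23.7 and 30.2 CPM in Cre-negative replicates 1, 2 and 3, so it too was near 0 in Cre-positive replicate 2. Among the first 100 genes were 3 other acinar, 3 erythroid and 2 islet genes of the lists, and 1 gene each of the hepatocyte, intestine, and spinal cord neuron and glia lists.

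The later ages were not used to propose the genes. There the Cre comparison was tested with limma on log2(CPM + 1) over all 24 diaphragm libraries, with Benjamini-Hochberg adjustment over all 13853 genes. Each gene has the same SE at all ages in this fit, so the E15.5 spread enters the later tests. Calls and missing calls at later ages are therefore not independent of the E15.5 values, and the same holds for the tissue comparison below. Of the 10 members 9 passed the filter, through their E15.5 reads in most cases, and Pnlip did not. Tested members with no read in either group at an age could not be called there: Cela2a and Prss2 at P0.5, these and Amy2a5 and Cpb1 at P10, and all but Cela1 in the adult. At P0.5, 1 member was higher in Cre-positive diaphragm and none was lower, where 12.1% of all genes were called higher and 15.7% lower. The called member was Cpb1, at 0.842, 8.26 and 0.495 CPM in Cre-positive replicates 1, 2 and 3, with no read in the Cre-negative libraries. Cpb1 reached 1 CPM in diaphragm only in that replicate 2 and in E15.5 Cre-positive replicates 1 and 3 (1.67 and 1.38 CPM). Cpb1 thus entered the test through E15.5 libraries that chose the genes and through the replicate with its highest value. Against a floor of 3 reads per library its mean of 3.20 ± 4.38 CPM (SD, n = 3) was at least 79.5-fold higher, or at least 16.6-fold higher without Cre-positive replicate 2, and the fitted log2 difference was 1.56 (SE 0.45, limma adjusted p = 0.0138). Without Cre-positive replicate 2, or without the intermediate libraries, Cpb1 no longer passed the filter and 0 members were called.

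Within the P0.5 Cre-positive group, replicate 2 also held most of the reads of Pnlip, Amy2a5 and Clps. Pnlip had 0.142, 3.11 and 0 CPM and Amy2a5 0.142, 2.19 and 0.0101 CPM in Cre-positive replicates 1, 2 and 3, whereas in Cre-negative libraries Pnlip had no read and Amy2a5 a single one. Cpa1, Pnliprp1 and Ctrb1 did not follow this pattern. Cpa1 had 1.32, 0 and 0.970 CPM in Cre-positive replicates 1, 2 and 3, against 0, 1.76 and 1.42 CPM in Cre-negative replicates 1, 2 and 3, an overlap that did not pass the test (log2 difference -0.18, limma adjusted p = 0.887). Cela1 had 0.964, 1.84 and 0.687 CPM in Cre-positive replicates 1, 2 and 3 and no read in Cre-negative libraries, at least 28.9-fold higher, but its log2 difference of 1.08 did not pass (SE 0.44, limma adjusted p = 0.0719). Cela1 and Cpb1 were the members whose groups did not overlap, with the Cre-positive libraries above, as for 20.8% of all genes.

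Liver genes were highest in Cre-positive replicate 2 of this age, where Cpa1, Pnliprp1 and Ctrb1 were lowest in that group. In P0.5 Cre-positive replicates 1, 2 and 3 the 19 hepatocyte genes summed to 3293, 20230 and 2485 CPM, against 247 to 373 CPM in Cre-negative libraries, and 18 of the 19 were called higher. Of the 34 other acinar genes 19 were tested, with 2 higher (Spink1 and Pla2g1b, a secreted phospholipase) and 1 lower (Gatm). Spink1 averaged 19.9 ± 21.5 CPM in Cre-positive libraries and had no read in Cre-negative ones (n = 3 each, limma adjusted p = 7.91e-05). The acinar list summed to 53.0, 141 and 52.2 CPM in Cre-positive and 151 to 195 CPM in Cre-negative libraries, with 19 and 31 of its 34 genes without a read in the Cre-positive and the Cre-negative group. Most of these sums was Gatm, which many tissues express. Gatm averaged 160 of 166 CPM in the Cre-negative group and 54.1 of 82.0 CPM in the Cre-positive group. The part of carried-over organ RNA in the Cpb1 and Cela1 values was not tested.

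At P10, none of the 5 members with reads was called by limma or had an unadjusted p under 0.05. Over all genes 0.419% were called higher and 1.03% lower, a background not comparable with so few low genes. Cela1 was the only member with reads in Cre-positive libraries, at 0.488, 1.12 and 0.820 CPM in replicates 1, 2 and 3, and had none in Cre-negative libraries. Its groups did not overlap, as for 9.52% of all genes with the Cre-positive libraries above. The mean was at least 24.4-fold higher, with a log2 difference of 0.84 (SE 0.44, limma adjusted p = 0.443). The call depended on the test, since edgeR's quasi-likelihood test on the recovered reads and limma with a pseudocount of 0.1 each called Cela1 as 1 member higher. Hepatocyte genes summed to 304, 985 and 565 CPM in Cre-positive replicates 1, 2 and 3, against 45.9, 334 and 185 CPM in Cre-negative replicates 1, 2 and 3, with 2 of 19 called higher, and their part in the Cela1 value was not tested. Reads of Pnliprp1 (0.174 ± 0.237 CPM), Cpa1 (0.0482 ± 0.0565 CPM), Clps (0.0427 ± 0.0739 CPM) and Ctrb1 (0.0221 ± 0.0382 CPM) were found only in Cre-negative libraries (mean ± SD, n = 3), and none of the 4 passed the test. Their log2 differences were -0.21, -0.07, -0.06 and -0.03 against SEs of 0.79, 0.73, 0.73 and 1.03. With 1 CPM added and the E15.5 spread in the SE, the test could not call such low genes, and nothing is read from it.

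In the adult, Cela1 was higher in Cre-positive diaphragm. It had 2.76, 2.56 and 2.93 CPM in Cre-positive replicates 1, 2 and 3, against 0.336, 0 and 0.431 CPM in Cre-negative replicates 1, 2 and 3, so the groups did not overlap, as for 11.0% of all genes in that direction. The means of 2.75 ± 0.185 CPM in Cre-positive and 0.256 ± 0.226 CPM in Cre-negative diaphragm (SD, n = 3 each) differed 10.8-fold, with a log2 difference of 1.59 (SE 0.44, limma adjusted p = 0.0204). Cela1 was the only member with reads in these libraries, so no share of members is read against the 3.06% of all genes called higher and 8.92% called lower. The call was lost without the intermediate libraries (1.61, adjusted p = 0.620), without Cre-negative replicate 1 (1.65, adjusted p = 0.0595), without Cre-negative replicate 2 (1.44, adjusted p = 0.0652) and without Cre-positive replicate 3 (1.56, adjusted p = 0.0713), with the size of the difference little changed.

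No acinar gene outside the 10 was called in the adult, of 19 tested. The acinar list summed to 43.3 to 58.5 CPM in Cre-positive and 59.7 to 84.8 CPM in Cre-negative libraries, with 28 and 30 of its 34 genes without a read in the Cre-positive and the Cre-negative group. Most of the Cre-positive sum was Amy1, whose adult level is given below. Hepatocyte genes summed to 310 to 616 CPM in Cre-positive and 48.6 to 63.6 CPM in Cre-negative libraries, with 9 of 19 called higher. The other 9 members had no read in any of the 6 adult diaphragm libraries. The Cre difference of Cela1 did not pass a test of change between ages (adult minus P0.5 0.52, SE 0.62, limma adjusted p = 0.623).

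Spinal cord, set against Cre-positive diaphragm of the same age, also held reads of some members. Cela1 had 2.41, 1.44 and 2.63 CPM at E15.5, then 7.61, 6.08 and 6.68 CPM at P0.5, 14.9, 16.1 and 16.2 CPM at P10 and 26.1, 27.9 and 27.7 CPM in the adult, in replicates 1, 2 and 3. The 4 ages did not overlap, and each was higher than the one before. Pnlip had 3.19, 2.17 and 3.33 CPM at E15.5, 5.88, 6.23 and 5.83 CPM at P0.5, 1.16, 1.70 and 1.51 CPM at P10 and 0.222, 0.527 and 0.232 CPM in the adult. It was thus highest at P0.5, and its 4 ages did not overlap either.

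Cpb1 was the other member with reads in all 12 cord libraries, at means of 1.04 ± 0.297, 1.35 ± 0.216, 0.340 ± 0.0767 and 0.372 ± 0.0772 CPM at E15.5, P0.5, P10 and in the adult (SD, n = 3 each). The remaining members stayed at or under 0.666 CPM in every cord library. At E15.5 Clps, Ctrb1 and Prss2 had no read in cord, while Pnlip, absent from all 6 E15.5 diaphragm libraries, averaged 2.90 ± 0.635 CPM in cord (SD, n = 3). The sets of members with reads thus differed between the tissues at that age.

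**Figure D5:**
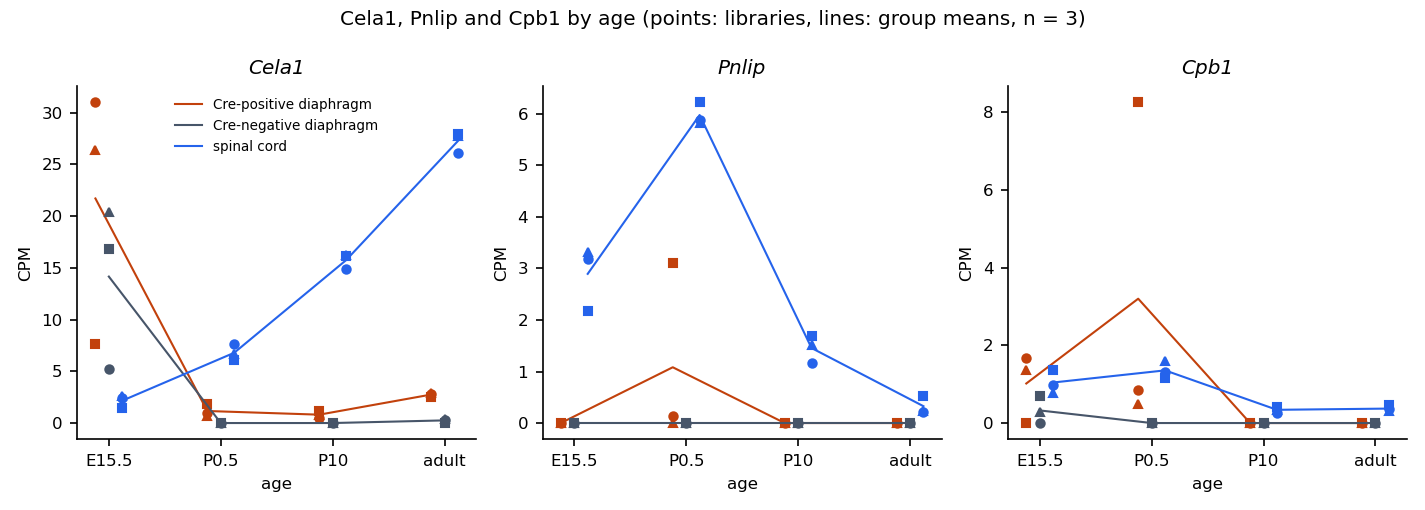
CPM of Cela1, Pnlip and Cpb1 by age, with 1 symbol per library (circle, square and triangle for replicates 1, 2 and 3) and lines through the group means (n = 3). In spinal cord Cela1 is higher at each later age, up to 26.1 to 27.9 CPM in the adult, and Pnlip is highest at P0.5, whereas P0.5 Cre-positive replicate 2 stands alone in diaphragm for Pnlip and Cpb1.

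Of the 10 members 7 could be tested between Cre-positive diaphragm and spinal cord (limma, 14831 genes), all but Cela2a, Ctrb1 and Prss2. Amy2a5, Pnliprp1, Cpa1 and Clps passed the filter only through E15.5 Cre-positive libraries, which chose the genes. The number tested depends on those libraries, so nothing is read from the share of members called. At P0.5, 2 of 7 were lower in diaphragm and none higher, where 56.9% of all genes were called lower and 18.4% higher. Cela1 averaged 1.16 ± 0.600 CPM in diaphragm and 6.79 ± 0.770 CPM in cord (SD, n = 3 each, log2 difference -1.88, SE 0.32, limma adjusted p = 2.98e-05). Pnlip averaged 1.08 ± 1.75 CPM in diaphragm and 5.98 ± 0.2197 CPM in cord (SD, n = 3 each, log2 difference -2.06, SE 0.32, limma adjusted p = 8.57e-06), a call that edgeR did not make (adjusted p = 0.213).

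At P10, 2 of 7 were again lower in diaphragm, where 53.1% of all genes were called lower and 19.9% higher. Cela1 averaged 0.808 ± 0.315 CPM in diaphragm and 15.7 ± 0.750 CPM in cord (SD, n = 3 each, log2 difference -3.22, SE 0.32, limma adjusted p = 2.32e-08). Pnlip had no read in diaphragm and 1.46 ± 0.271 CPM in cord (SD, n = 3), at least 46.9-fold lower in diaphragm (log2 difference -1.29, SE 0.32, limma adjusted p = 0.00129). In the adult 1 of 7 was lower, where 55.3% of all genes were lower and 19.5% higher: Cela1 averaged 2.75 ± 0.185 CPM in diaphragm and 27.3 ± 0.986 CPM in cord (SD, n = 3 each, 9.91-fold lower, log2 difference -2.91, SE 0.32, limma adjusted p = 8.88e-08). Pnlip, with no read in diaphragm and 0.327 ± 0.173 CPM in cord (SD, n = 3), did not pass there (log2 difference -0.40, limma adjusted p = 0.269). The Cela1 calls held at all 3 ages in each of the 13 alternatives. Of the 7 tested members, Clps had no read in either group at P10, and Clps and Pnliprp1 had none in the adult.

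Among the 34 other acinar genes, 10 were tested between the tissues, with 1 higher and 2 lower in Cre-positive diaphragm at P0.5, 3 higher and 5 lower at P10, and 1 higher and 3 lower in the adult. In the adult Amy1, an amylase gene that tissues outside the pancreas also express, averaged 46.2 ± 10.3 CPM in diaphragm and 1.32 ± 0.212 CPM in cord (SD, n = 3 each, limma adjusted p = 2.27e-11). Some acinar genes outside the 10 also had reads in adult spinal cord, where 11 of the 34 had none.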

How the data were processed

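RNA purified through HA-tagged Rpl22 was extracted with the RNeasy micro kit and sequenced after the BGI library protocol, per the labels. The authors deposited a table of CPM for 18845 genes in 36 libraries. Tools named in the submitters' processing notes were RSEM 1.2.12 and Bowtie2 2.2.5, with mm10 as the genome build, and the counting of shared reads is not given in the sources used here. Dividing by the step of 1 read gave values within 0.1 of whole in all 36 libraries (100% of values), but the depth of P0.5 Cre-positive replicate 3 is an estimate.

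Groups follow the labels. limma 3.58.1 (R 4.3.3, trend and robust) was run on log2(CPM + 1). Genes had to reach 1 CPM in at least 3 libraries entering the fit, with Benjamini-Hochberg adjusted p under 0.05 as a call. The limma fit was also run on simulated independent libraries. Only genes above the levels of the members in diaphragm after birth were changed there, so that run does not speak for calls of members. A log2 difference on this scale understates the change of low genes. Alternatives were a pseudocount of 0.1, no filter, DESeq2 1.42.0 size factors, edgeR 4.0.16 on recovered reads (4066, 49 and 1706 genes in the Cre comparisons at P0.5, P10 and adult, and 10032, 9879 and 10723 between tissues), only the 6 libraries compared, a replicate block, and leaving out libraries. Leaving libraries out of the summed member level and of the E15.5 member levels, the P0.5 bounds without replicate 2, the shares over genes passing the filter, and the alternatives for the change of the tissue difference with age, were chosen after seeing the data. The members and the 16 gene lists (213 of 225 genes in the table) were chosen with earlier results of these data known. Named genes are all members, the 15 most correlated genes, and the 2 most abundant genes and genes without a read of each list, plus those stated as chosen later. Levels are not compared between genes, since CPM is not per length. Positions come from RefSeq on GRCm38.p6.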

Additional observations from a re-analysis of the deposited data

Results flagged for a closer look

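The difference between Cre-positive diaphragm and spinal cord changed with age for Cela1. On the log2(CPM + 1) scale it was more negative by 1.35 at P10 than at P0.5, a change of -1.35 (SE 0.46, limma adjusted p = 0.0216). Cela1 averaged 0.808 ± 0.315 CPM in diaphragm and 15.7 ± 0.750 CPM in cord at P10, against 1.16 ± 0.600 CPM in diaphragm and 6.79 ± 0.770 CPM in cord at P0.5 (SD, n = 3 each). With DESeq2 size factors the change was -1.39 (adjusted p = 0.0113), and without the intermediate libraries -1.38, which no longer passed (adjusted p = 0.195).

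On the log2(CPM + 1) scale the same difference changed for Pnlip from P0.5 to the adult, by 1.66 (SE 0.45, limma adjusted p = 0.00435). Pnlip had no read in adult diaphragm and 0.327 ± 0.173 CPM in adult cord, against 1.08 ± 1.75 CPM in diaphragm and 5.98 ± 0.2197 CPM in cord at P0.5 (SD, n = 3 each). With size factors the change was 1.40 (adjusted p = 0.0148), and without the intermediate libraries 1.35 (adjusted p = 0.153). In plain CPM the Pnlip mean was 5.52-fold lower in diaphragm at P0.5 and at least 11.0-fold lower in the adult. The fold thus did not shrink, and the change above depends on the added 1 CPM. The P0.5 diaphragm mean rested mostly on replicate 2 (0.142, 3.11 and 0 CPM in replicates 1, 2 and 3). Groups of 3 libraries were too small for the test of single outlying samples.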

How the results depend on the processing

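Of the values for single members, 530 kept their direction and side of the threshold, 15 passed the threshold only under an alternative, 5 lost it and 13 turned direction. Members called in the Cre comparison at P0.5 numbered 2 with a pseudocount of 0.1, 2 with DESeq2 size factors, 3 with edgeR, and 0 without the intermediate libraries or with only the 6 libraries compared. At P10 they were 1 with a pseudocount of 0.1 and 1 with edgeR, and in the adult 0 without the intermediate libraries. In the adult tissue comparison they were 3 with a pseudocount of 0.1 and 4 with edgeR. Genes called in the Cre comparisons were 3844, 201 and 1659 at P0.5, P10 and in the adult, and 108, 0 (246 at an unadjusted p under 0.05) and 14 without the intermediate libraries, 1252 at P0.5 and 1196 at P10 with only the 6 libraries, and 365 at P10 with no filter and 49 with edgeR. The cause of these changes was not tested, except that leaving libraries out makes groups smaller.

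Size factors shifted the log2 difference of well-expressed genes by 0.45, 0.19 and 0.36 (Cre, P0.5, P10 and adult) and by 0.67, 0.54 and 0.77 (tissue), and that of low genes by less because of the added 1 CPM. Higher against lower calls became 2700 against 1260 (3031 higher with edgeR) in place of 1672 against 2172 at P0.5, 87 against 90 in place of 58 against 143 at P10, and 976 against 787 in place of 424 against 1235 in the adult, where edgeR called 1011 higher, as it did 35 at P10. Between tissues they became 4072 against 6494, 4092 against 6117 and 4354 against 6361, in place of 2722 against 8442, 2952 against 7881 and 2895 against 8195, and edgeR called 5102, 4783 and 4906 higher. The summed member level moved to 4.59, 12.1, 14.4 and 25.5 CPM in cord from E15.5 to adult, and to 4.19 CPM in adult Cre-positive diaphragm.

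Cpa1 in the P0.5 Cre comparison (-0.18) turned to 0.033 with size factors and 0.039 with edgeR, and ranged from -0.64 to 0.18 with 1 library left out, turning without replicate 2 of either group. In the P0.5 tissue comparison Clps turned to 0.10 (pseudocount 0.1), 0.030 (size factors) and 0.88 (edgeR), and ranged from -0.046 to 0.086 with 1 library left out. Pnliprp1 turned to 0.035 (size factors) and 0.71 (edgeR), and ranged from -0.11 to 0.0019. Cpb1 ranged from -0.50, without diaphragm replicate 2, to 0.81.

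Leaving out 1 library in turn gave 2713 to 4185, 44 to 155 and 844 to 1639 genes and 0 to 1, 0 to 0 and 0 to 1 members in the Cre comparisons at P0.5, P10 and adult, and 10570 to 11362, 10196 to 10552 and 10538 to 11006 genes and 2 to 2, 2 to 2 and 1 to 1 members between tissues. At P10 leaving out replicate 3 gave 44 (of the Cre-negative group) or 48 (of the Cre-positive group), Cre-negative replicate 1 gave 93, and Cre-positive replicate 2 gave 124. In the adult, leaving out Cre-negative replicate 1 gave 844 and Cre-positive replicate 3 gave 909. The summed member level ranged over 243 to 519, 3.19 to 9.71, 0.654 to 0.969 and 2.66 to 2.85 CPM in Cre-positive diaphragm from E15.5 to adult, over 865 to 1448, 0.764 to 1.63, 0.191 to 0.366 and 0.168 to 0.383 CPM in Cre-negative diaphragm, and over 6.22 to 7.17, 14.4 to 14.9, 17.5 to 18.5 and 28.2 to 29.4 CPM in spinal cord.

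Samples with the same replicate number in different groups did not deviate together: 0 of 24 pairs correlated above 0.1 (-0.0636 to 0.0709). With the replicate block 3773, 165 and 1572 genes (1, 0 and 1 members) were called in the Cre comparisons and 11163, 10807 and 11074 genes (2, 2 and 1 members) between tissues, so the block changed no call of a member. Depth limits little here, since 3 reads equal at most 0.0471 CPM, and the number of separate libraries sets the precision.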
